A study of Mus musculus with 6 samples.

Results

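The genes described here are the mouse olfactory receptor genes whose array probes gave a signal well above background in embryonic stem (ES) cells. They were taken from all gene probes whose name in the scanner files is an Olfr symbol. A probe was kept where the scanner software had marked its signal as well above background on 3 or more of the 6 arrays, without regard to genotype. This left 158 probes for 156 genes, out of 1195 olfactory receptor probes for 1099 genes, or 13.22% of these probes. Of all 39429 gene probes, 67.6% met the same rule. The set was thus chosen by the detection marks, and detection is given below as a description without a test.

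Olfactory receptors are G protein coupled receptors that bind odorants in the cilia of sensory neurons in the nose. They form the largest gene family of the mouse genome, lie in clusters on most chromosomes, and have a coding region without introns. Each olfactory neuron expresses a single receptor gene from a single allele and keeps the others silent in heterochromatin. Some receptors are also transcribed outside the nose, in testis among other tissues.

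Total RNA was hybridised to 1-colour Agilent arrays of 60-base probes, with 3 arrays of Zscan5b knockout mouse ES cells and 3 arrays of wild type mouse ES cells. Zscan5b encodes a protein with zinc fingers and a SCAN domain. Cells of both genotypes were kept undifferentiated in leukemia inhibitory factor at 1000 IU/ml, on feeder fibroblasts from mouse embryos that had been inactivated with mitomycin C at 10 ug/ml. The labels call the samples biological replicates, but do not give the strain, the place of the deletion or whether the knockout replicates were separate clones.

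A level is the log2 processed signal of a probe minus the 75th percentile of that array, so that a level of 0 is the signal at that percentile. A log2 fold change is knockout minus wild type. The Zscan5b probe had levels of -4.47, -5.17 and -5.13 in knockout cells and of -3.66, -4.03 and -3.12 in wild type cells. It was lower on every knockout array, with a log2 fold change of -1.32 ± 0.29 (SE) that missed the threshold (limma adjusted p = 0.107). Whether this probe lies inside the deleted part is not known. All 10 ES cell markers of the list, among them Pou5f1, Sox2 and Dppa5a, were detected in both genotypes. Of 10 markers of olfactory sensory neurons, Omp, Gnal, Adcy3, Cnga2, Cngb1 and Gng13 were well above background on all 6 arrays. The others, Cnga4, Ano2, Stoml3 and Rtp1, were well above background on no array.

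The signals of the receptor probes were low. The median level of the 158 probes was -5.41, against -1.39 over the 26651 probes that met the detection rule, and 121 of the 158 lay among the dimmest 20% of those probes. Above a level of 0 there were 4 receptor probes, between -2 and 0 there was 1, and between -4 and -2 there were 17. The other probes numbered 38 between -5 and -4, 60 between -6 and -5, and 38 below -6. Because probes differ in how strongly they bind, this order is one of probe signals and not of transcript amounts.

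The 4 receptor probes above 0 are printed because they carried the only signals in the upper part of the array's range. Their positions, as the scanner files give them, refer to mouse build mm9.
Olfr544: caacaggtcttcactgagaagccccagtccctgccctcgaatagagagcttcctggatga
Olfr1229: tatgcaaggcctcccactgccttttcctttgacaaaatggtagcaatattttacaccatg
Olfr1466: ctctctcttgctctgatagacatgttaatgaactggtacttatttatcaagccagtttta
Olfr1368: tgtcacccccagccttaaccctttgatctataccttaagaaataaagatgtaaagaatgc
The Olfr544 probe lies at chr7:109632628-109632687 on the minus strand. The Olfr1229 probe lies at chr2:89122461-89122520 on the minus strand, the Olfr1466 probe at chr19:13416809-13416868 on the plus strand and the Olfr1368 probe at chr13:21234026-21234085 on the minus strand. No annotation of build mm9 was used, so exons and untranslated regions are not assigned.

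Olfr544, known as a receptor for azelaic acid that is also expressed in fat and liver, had the brightest receptor probe. Its levels were 1.72, 1.50 and 1.53 in knockout cells, against 1.37, 1.40 and 1.60 in wild type cells. The groups overlapped (log2 fold change 0.12 ± 0.12 SE, limma adjusted p = 0.552), and the mean level lay at percentile 76.2 of the tested probes. Olfr1229 had levels of 0.75, 0.65 and 0.56 in knockout cells and of 0.97, 0.70 and 1.04 in wild type cells (limma adjusted p = 0.306). Olfr1466 had 0.52, 0.41 and 0.92 in knockout cells and 0.09, 1.05 and 0.39 in wild type cells, and wild type replicates 1 and 2 enclosed all other arrays. Olfr1368 had -0.01, 0.02 and -0.02 in knockout cells and 0.11, 0.19 and -0.09 in wild type cells. None of these 4 probes passed the test. For the receptors other than Olfr544 no role beyond odorant reception is stated here.

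The next 8 probes in this order belonged to Olfr373, Olfr522, Olfr1252, Olfr212, Olfr629, Olfr1402, Olfr187 and Olfr1372-ps1, with mean levels between -1.69 and -2.96. Olfr373 had levels of -1.69, -1.72 and -1.73 in knockout cells and of -1.69, -1.64 and -1.67 in wild type cells. Olfr522 had -2.67, -2.66 and -2.70 in knockout cells and -2.20, -2.04 and -2.01 in wild type cells. The Olfr522 groups did not overlap, but the difference of -0.60 ± 0.10 (SE) missed the threshold (limma adjusted p = 0.0682). At the edge of the detection rule, Olfr531 and Olfr612 were the brightest probes detected on exactly 3 arrays. Olfr531 had levels of -6.53, -6.51 and -3.56 in knockout cells and of -5.90, -6.61 and -3.97 in wild type cells, with replicate 3 of both genotypes apart from the rest. Olfr612 had -6.45, -5.94 and -5.92 in knockout cells and -5.09, -4.50 and -5.58 in wild type cells. Just outside, Olfr1441 and Olfr477 were the brightest probes detected on 2 arrays. Olfr1441 had levels of -6.24, -6.23 and -6.25 in knockout cells and of -6.43, -3.45 and -6.83 in wild type cells, where wild type replicate 2 stood apart. Olfr477 had -6.49, -6.27 and -6.10 in knockout cells and -5.94, -5.41 and -5.46 in wild type cells.

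**Figure D1:**
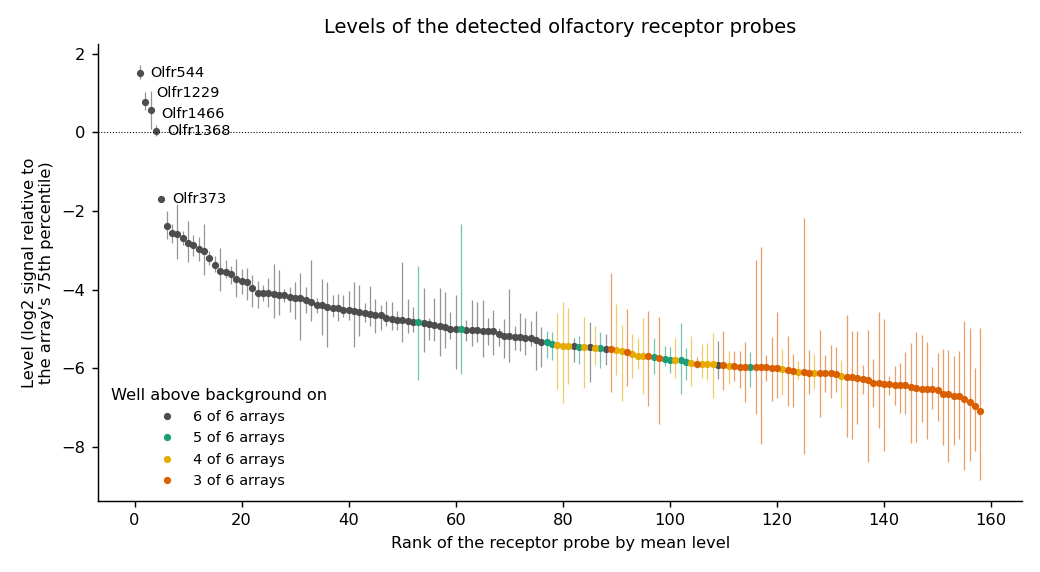
Mean level of each of the 158 detected olfactory receptor probes over the 6 arrays (y axis, log2 signal relative to the array's 75th percentile) by rank (x axis), with lines from the lowest to the highest array and colours for the number of arrays on which the probe was well above background. The 4 brightest probes lie above 0, and 60 probes lie between -6 and -5 and 38 below -6.

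Of the 1195 receptor probes, 829 were well above background on no array and 78 on all 6, which is 6.527% of them, against 61.45% of all gene probes. Receptor probes well above background numbered 179, 105 and 118 on the knockout arrays, and 178, 237 and 192 on the wild type arrays. Knockout replicate 1 lay just above wild type replicate 1, so the genotypes overlapped, while knockout replicates 2 and 3 held the fewest. Over all gene probes the numbers were 27111, 25487 and 25371 on the knockout arrays, and 26511, 27754 and 27161 on the wild type arrays. Knockout replicate 1 and wild type replicate 2 were the highest of their genotypes in both counts. The lowest signal marked well above background was 11.8, 13.3 and 13.7 on the knockout arrays and 10.6, 8.69 and 9.90 on the wild type arrays, on the linear scale. That signal was higher on every knockout array than on any wild type array, and its part in the receptor counts was not tested. The file headers show that each genotype was scanned in a scan of its own, so scan and genotype cannot be told apart in any comparison below.

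Among the receptor probes, 27 were well above background on all 3 wild type arrays and on no knockout array, and none showed the opposite pattern. Over all gene probes these patterns were found at 278 (0.705%) and 16 (0.0406%). Olfr1384 was the only receptor probe on all 3 knockout arrays and fewer than 2 wild type arrays, with levels of -5.95, -5.72 and -5.10 in knockout cells and of -6.45, -5.41 and -6.74 in wild type cells. It is named after its values were seen. Its groups overlapped through wild type replicate 2.

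**Figure D2:**
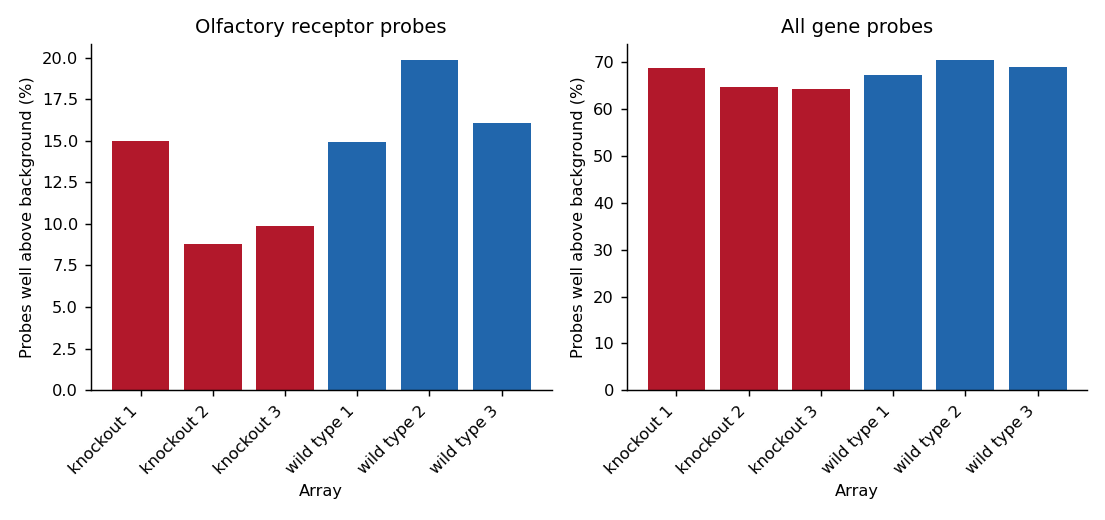
Percent of probes well above background on each array (y axis, separate scales), for the 1195 olfactory receptor probes on the left and for all 39429 gene probes on the right, with knockout arrays in red and wild type arrays in blue. Receptor probes range from 8.79% on knockout replicate 2 to 19.8% on wild type replicate 2, and all gene probes from 64.4% to 70.4%.

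Detected receptor probes held more pyrimidines than undetected ones, and base composition was not used by the rule. The pyrimidines C and T made up 58.6% of the bases of the 158 detected probes on average, against 48.0% in the 829 receptor probes detected on no array and 49.7% in all tested probes. Adenine made up 22.3% of the bases of detected probes, against 31.5% in the undetected ones. Among receptor probes with at most 40% pyrimidines 3.46% were detected, and the share was 4.35%, 17.1% and 31.1% in the next bins of 10 percentage points. In the highest bin 3 of 4 receptor probes were detected, too few to carry a trend. Over all gene probes the share detected in the same bins was 61.7%, 66.3%, 70.2%, 73.2% and 86.4%. Whether base composition changes the signal of a probe was not tested, and probes of related receptors share sequence.

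**Figure D3:**
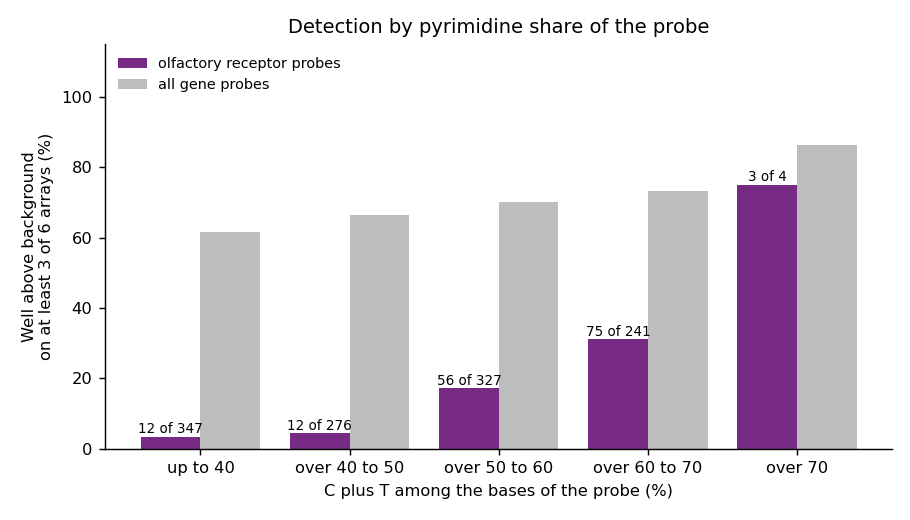
Percent of probes well above background on at least 3 of 6 arrays (y axis) by the share of C and T among the 60 bases of the probe (x axis, percent), for olfactory receptor probes in purple and all gene probes in grey, with the number of receptor probes above each bar. The receptor share is 3.46% in the lowest bin and 31.1% between 60% and 70%, where 75 of 241 probes were detected.

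For 23 genes with a detected probe the array held another probe of the same gene. In 21 of these genes at least 1 probe did not meet the rule, and in 16 of the 23 pairs the other probe was well above background on no array. Only for Olfr456 and Olfr616 did every probe meet the rule. In 6 pairs the probes overlapped, and the pairs of Olfr373, Olfr975, Olfr965 and Olfr95 are shown because in them a detected probe overlapped a probe detected on no array, with a shift of 24 to 40 bases. Capitals mark the bases that both probes share.
Olfr373, detected on 6 arrays: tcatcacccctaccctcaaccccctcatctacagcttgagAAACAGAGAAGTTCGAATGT
Olfr373, detected on 0 arrays: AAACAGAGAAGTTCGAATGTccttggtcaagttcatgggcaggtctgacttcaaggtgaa
Olfr975, detected on 5 arrays: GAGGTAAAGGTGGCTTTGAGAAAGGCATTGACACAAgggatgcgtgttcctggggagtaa
Olfr975, detected on 0 arrays: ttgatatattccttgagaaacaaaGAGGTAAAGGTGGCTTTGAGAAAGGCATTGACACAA
Olfr965, detected on 3 arrays: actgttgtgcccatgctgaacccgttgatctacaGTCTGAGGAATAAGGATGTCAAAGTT
Olfr965, detected on 0 arrays: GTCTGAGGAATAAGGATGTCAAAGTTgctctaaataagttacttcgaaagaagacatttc
Olfr95, detected on 4 arrays: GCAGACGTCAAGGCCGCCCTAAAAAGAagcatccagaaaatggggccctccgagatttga
Olfr95, detected on 0 arrays: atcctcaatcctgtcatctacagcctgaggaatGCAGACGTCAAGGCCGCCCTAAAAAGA
The detected Olfr373 probe lies at chr8:74624499-74624558 on the plus strand and shares 20 bases with the undetected probe. In the RefSeq gene table the accessions of the detected probe belong to both Olfr372 and Olfr373, and those of the undetected probe to Olfr373 alone. The detected Olfr975 probe lies at chr9:39757422-39757481 on the minus strand and shares 36 bases with its partner. The detected Olfr965 probe lies at chr9:39527651-39527710 on the plus strand and shares 26 bases with its partner. The detected Olfr95 probe lies at chr17:37347858-37347917 on the minus strand and shares 27 bases with its partner. In all, 6 of the 158 detected probes (3.80%) were annotated to more than 1 gene, against 5.59% of the other receptor probes, so the signal of those 6 cannot be given to 1 gene. Matches of probe sequences to other genes were not searched, so the remaining probes are not shown to be specific to 1 gene either.

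Of receptors studied outside the nose or as models of odorant coding, Olfr544 was detected on all 6 arrays, as given above. The 10 others named here did not meet the detection rule, and they were chosen for their known biology after other values had been seen. Olfr78, a receptor for short-chain fatty acids in kidney and carotid body, was detected on no array, as were Olfr16 (MOR23, present on sperm), Olfr73 (mOR-EG, a eugenol receptor), Olfr151 (M71, an acetophenone receptor), Olfr558 and Olfr1019. Olfr160 (M72) and Olfr17 (P2) were detected on 1 wild type array each, Olfr691 on 1 knockout array, and Olfr1393, which acts in renal glucose handling, on 1 array of each genotype. Olfr17 had no level on wild type replicate 1, where its spot was an outlier. Its levels on wild type replicates 2 and 3 were -8.73 and -8.65, below the lowest level marked well above background on those arrays. The mean levels of the 10 ranged from -8.62 for Olfr151 to -6.65 for Olfr1393. A probe not well above background does not show that the transcript was absent.

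The detected genes were spread over the genome. Receptor probes with gaps of at most 1 Mb between neighbours formed 49 clusters, of which 33 held a detected probe, on 16 of the 17 chromosomes with receptor probes. All 17 clusters of at least 20 probes held at least 1, and the detected share in them ranged from 2.70% to 30.0%. The largest cluster, at chr2:85171954-90165272, held 29 detected of 237 probes, among them Olfr1229 and Olfr1252. The cluster at chr7:109625402-112517830, where the class I receptors lie, held 21 of 141, among them Olfr544 and Olfr629. The cluster at chr17:37222226-38472904, linked to the major histocompatibility complex, held 11 of 48, and its brightest detected probe was that of Olfr96. The cluster on chromosome 14 at chr14:50514064-53109766 held 1 of 37, and none of the 6 probes on the X chromosome was detected. Levels within the chromosome 2 cluster ran up to 0.78 with a median of -5.48 over the detected probes, and within the class I cluster up to 1.52 with a median of -5.50.

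**Figure D4:**
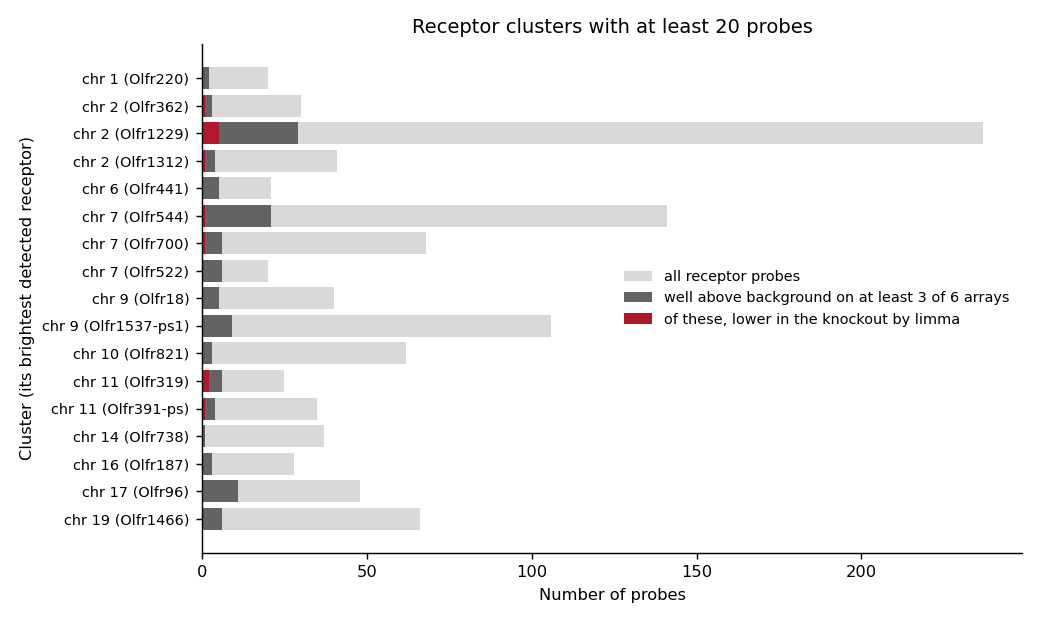
Number of olfactory receptor probes (x axis) in each of the 17 clusters of at least 20 probes (y axis, named by chromosome and brightest detected receptor), with all probes in light grey, those well above background on at least 3 of 6 arrays in dark grey, and those lower in the knockout by limma in red. Every one of these clusters holds a detected probe, and 7 of them hold a probe that was lower in the knockout.

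The next receptor gene along the chromosome was detected for 30 of 140 detected genes (21.4%), and for 114 of 903 undetected genes (12.6%). A detected probe of another gene lay within 50 kb of 30.3% of the 155 mapped detected probes, against 19.8% of the 1030 other mapped receptor probes. Any probe of another gene, detected or not, lay within 50 kb of 44.5% and 32.7% of them. Of the 69 detected receptor probes with such a neighbour 47 had a detected one, and of the 337 other receptor probes 204. The nearest other gene to the Olfr544 probe was Rrm1, which encodes a subunit of ribonucleotide reductase, at 15.35 kb, with a level of 3.60. The Olfr1229 and Olfr1466 probes had no other gene's probe within 50 kb. These shares are descriptions, since neighbours share sequence and are not independent, and whether transcripts run from neighbouring genes into receptors was not tested.

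The genotypes were compared in the fit over all 26651 tested probes, with p-values adjusted over all of them. Of the 158 receptor probes, 16 fell in knockout cells and none rose (limma, adjusted p under 0.05). This is 10.13% of them, beside 0.341% of all tested probes that fell and 0.124% that rose. Of the 158, 80 were detected on 3 to 5 arrays, as were 2422 of the 26651 tested probes. Of the 91 tested probes that fell, 36 were among the 24229 detected on all 6 arrays. At an unadjusted p under 0.05 there were 65 receptor probes lower, beside 11.3% of all tested probes, and 7 higher, beside 10.6%. The 158 include the 27 probes detected on wild type arrays only, which met the rule through the genotype in which they were brighter. The 78 probes detected on all 6 arrays are therefore given apart. Of these 78, 23 were lower at an unadjusted limma p under 0.05, beside 11.3% of all tested probes, and 5 higher, beside 10.6%. By adjusted p, 7 of the 78 fell (8.974%), beside 0.149% of all probes detected on all 6 arrays. None of the 78 rose, beside 0.116%. The other 9 that fell all belong to the 27 detected on wild type arrays only, so their direction was set by the rule and their number is a description. The count rested on single arrays: it was 0 without any 1 of knockout replicates 1, 2 and 3 or wild type replicate 3, and 40 without wild type replicate 2. It was also 0 without a detection filter, with a trended robust prior, with the replicate block and after normexp correction of the background. The normexp correction adds an offset of 50 to each signal, which makes the fold changes of dim probes smaller. With the filter set to all 6 arrays none of the 78 passed, and the adjusted p of the 7 was then 0.0510 to 0.0575. All 16 kept a negative log2 fold change under each of the 15 alternatives that tested them, and their adjusted p ranged from 0.0234 to 0.303 over those alternatives. Nothing in the labels says that the replicates came from separate cultures beyond the word biological, so the p-values measure the spread between these samples.

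All 3 knockout levels lay below all 3 wild type levels at 65 of the 158 receptor probes (41.1%), beside 15.4% of all tested probes, and the reverse held at 8 (5.06%), beside 13.6%. For the 78 on all 6 arrays these numbers were 24 (30.8%, beside 14.9%) and 7 (8.97%, beside 14.1%). The log2 fold change was negative at 109 of the 158, beside 51.4% of all tested probes, and positive at 49, beside 48.6%. Among the 109 were the 27 detected on wild type arrays only, whose direction was set by the rule. Over the 78 the log2 fold change was negative at 45 and positive at 33. Its median was -0.32 over the 158 and -0.17 over the 78, against -0.011 over all tested probes and -0.0062 over all probes detected on all 6 arrays. Among probes detected on 3 to 5 arrays the median was -0.55 over 80 receptor probes and -0.13 over all 2422. The direction for the whole family of olfactory receptors turned with the background correction. Over all 1195 receptor probes without a filter the median log2 fold change was 0.32 with 813 positive, 0.27 with the median shift, 0.32 in the authors' table and 0.025 with quantile normalization, but -0.048 with normexp, where 868 were negative. At the 829 receptor probes detected on no array it was 0.34 after the 75th percentile shift and -0.042 with normexp, so the sign there depended on the background correction.

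Markers of feeder fibroblasts, which grew in the same dishes, are given beside these counts. All 11 tested markers of 12 were lower on average in knockout cells, and their median log2 fold change was -1.22. None passed the limma test, 3 were lower at an unadjusted p under 0.05, beside 11.3% of all tested probes, and Col5a2 did not meet the detection rule. Their summed level on the linear scale was 25.3, 34.3 and 26.1 on the knockout arrays and 31.8, 88.7 and 84.8 on the wild type arrays, so wild type replicate 1 lay within the knockout range. Col1a1, a fibrillar collagen, had levels of 1.14, 1.97 and 1.45 in knockout cells and of 1.73, 3.16 and 3.22 in wild type cells. The part of the feeder cells in the receptor counts was not tested. Fewer cells of a type and less RNA per cell cannot be told apart in these bulk samples.

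The 7 receptor probes that fell and were detected on all 6 arrays belonged to Olfr1402, Olfr700, Olfr1143, Olfr30, Olfr1312, Olfr1109 and Olfr207, and were between 1.84 and 2.52 times lower in knockout cells. The probe sequences are given for the 6 with a position in the files.
Olfr1402: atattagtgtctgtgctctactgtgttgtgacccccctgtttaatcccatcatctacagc
Olfr700: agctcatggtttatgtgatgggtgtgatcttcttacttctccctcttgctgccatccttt
Olfr1143: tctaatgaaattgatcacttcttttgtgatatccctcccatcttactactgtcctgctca
Olfr30: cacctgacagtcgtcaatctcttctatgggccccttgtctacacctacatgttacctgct
Olfr1312: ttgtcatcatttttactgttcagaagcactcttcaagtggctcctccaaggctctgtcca
Olfr1109: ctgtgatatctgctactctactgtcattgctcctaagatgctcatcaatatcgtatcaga
They lie at chr3:97214221-97214280, chr7:113949329-113949388, chr2:87643070-87643129, chr11:58268658-58268717, chr2:111882482-111882541 and chr2:86933290-86933349, the Olfr1143 probe on the plus strand and the others on the minus strand.

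Olfr1402 had levels of -3.30, -3.22 and -3.22 in knockout cells, against -2.52, -2.32 and -2.24 in wild type cells. The groups were well apart (log2 fold change -0.88 ± 0.11 SE, limma adjusted p = 0.0456). It is the sole receptor probe within 1 Mb at its place on chromosome 3. Olfr700 had levels of -4.57, -4.65 and -4.62 in knockout cells, against -3.73, -3.51 and -3.76 in wild type cells (log2 fold change -0.95 ± 0.11 SE, limma adjusted p = 0.0377). Olfr1143 had levels of -5.15, -4.87 and -4.79 in knockout cells, against -3.93, -3.73 and -3.86 in wild type cells (log2 fold change -1.10, limma adjusted p = 0.0415). At each of these 3 receptors the gap between the genotypes was wider than the range within either of them.

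Olfr30 had levels of -4.98, -5.18 and -5.13 in knockout cells, against -4.19, -3.87 and -4.11 in wild type cells (log2 fold change -1.04). Olfr1312 had -5.41, -5.59 and -5.53 in knockout cells, against -4.36, -3.95 and -4.22 in wild type cells, and its difference of -1.33 was the largest of the 7. Olfr1109 had -5.51, -5.68 and -5.52 in knockout cells, against -4.50, -3.96 and -4.36 in wild type cells (log2 fold change -1.30). At Olfr30, Olfr1312 and Olfr1109 wild type replicate 2 was the highest array. Olfr207, without a position in the files, had -5.70, -5.69 and -5.65 in knockout cells, against -4.44, -4.27 and -4.47 in wild type cells, and the smallest spread in the knockout (SD 0.028, n = 3). Adjusted p-values of the 16 probes ranged from 0.0374 to 0.0474.

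The other 9 probes that fell were well above background on no knockout array, so their knockout level is a bound. The fold was taken against the higher of the probe's own level and the lowest level marked well above background on each knockout array, and the limma p tests the fitted values, not the bound. Olfr353, at chr2:36745571-36745630, was at least 2.75-fold lower in knockout cells, with levels of -6.61, -6.95 and -6.39, against -4.97, -4.55 and -4.67 in wild type cells. Olfr1221, at chr2:88952020-88952079, was at least 2.20-fold lower, with levels of -7.24, -8.11 and -7.81 in knockout cells, against -5.69, -4.73 and -4.74 in wild type cells. Its fitted log2 fold change of -2.67 was the most negative among the 158, and wild type replicate 1 was the lowest of its group. Olfr661, in the class I cluster at chr7:111837177-111837236, was at least 1.73-fold lower, with levels of -7.31, -7.88 and -7.59 in knockout cells, against -5.07, -5.26 and -5.86 in wild type cells. The bounds of Olfr1180, Olfr139, Olfr1243, Olfr29-ps1, Olfr170 and Olfr324 lay between 1.08 and 1.94. The probes of the first 3 are shown as examples of receptors seen in wild type cells only.
Olfr353: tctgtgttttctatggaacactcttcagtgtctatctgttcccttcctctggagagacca
Olfr1221: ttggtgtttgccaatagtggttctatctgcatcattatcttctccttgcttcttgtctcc
Olfr661: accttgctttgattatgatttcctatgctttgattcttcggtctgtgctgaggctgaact
Over all 27 probes detected in wild type cells only the bound ranged from 1.00 to 2.75, with a median of 1.54. Olfr136, Olfr1126 and Olfr1257 belonged to these 27 and had fitted log2 fold changes of -2.40, -2.19 and -2.06, which missed the threshold (limma adjusted p = 0.0918, 0.0744 and 0.102).

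**Figure D5:**
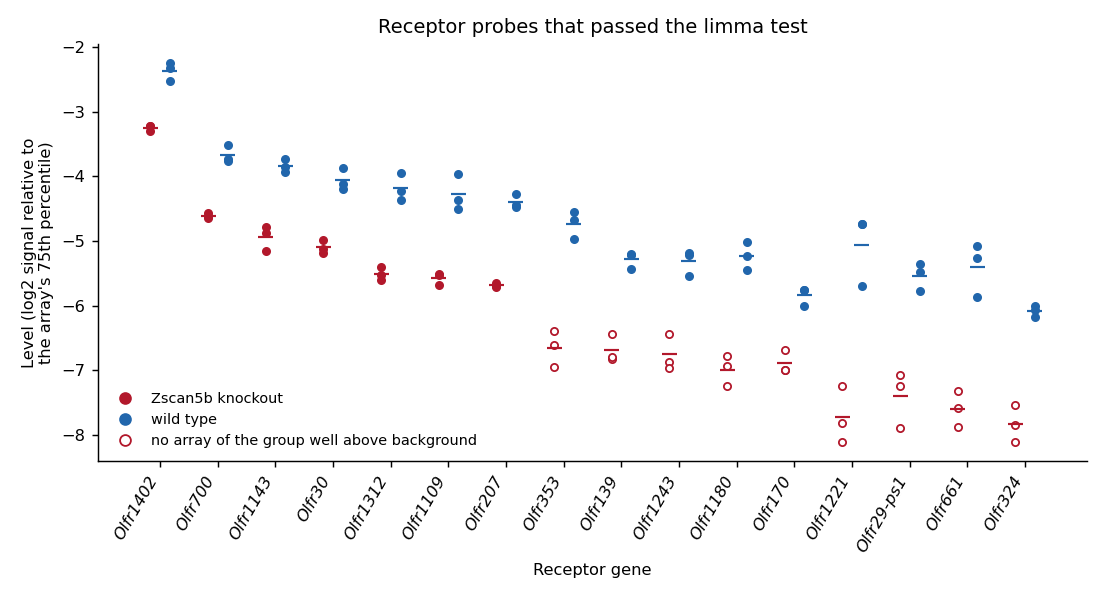
Level on each array (y axis, log2 signal relative to the array's 75th percentile) for the 16 receptor genes that passed the limma test (x axis), with knockout in red left of wild type in blue, bars at the group means and open circles where no array of the group was well above background. The groups do not overlap at any of the 16, and 9 of them have open circles in the knockout.

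The 15 of these 16 probes with a position lay on 6 chromosomes, 7 of them on chromosome 2 and 5 of those in its largest cluster. Chromosome 2 held 36 of the 155 mapped detected probes. Of these 7, Olfr353, Olfr1180, Olfr1221 and Olfr1243 were detected on wild type arrays only, so their direction was set by the rule. The largest cluster had a median log2 fold change of -0.60 over its 29 detected probes, of which 12 were detected on all 6 arrays. Of the 29, 13 were without overlap and lower in the knockout, beside 15.4% of all tested probes. The 13 include Olfr141, Olfr1126, Olfr1180, Olfr1217, Olfr1221, Olfr1243 and Olfr1257, which were detected on wild type arrays only, so their direction was set by the rule. Olfr1180, Olfr1221 and Olfr1243 are also among the 5 that fell. The rest of the 13 are Olfr259, Olfr1030 and Olfr1036, detected on 1 knockout and 3 wild type arrays, and Olfr1109, Olfr1143 and Olfr74, detected on all 6. In the class I cluster, 1 of 21 detected probes fell, with a median of -0.26, and in the cluster linked to the major histocompatibility complex none of 11 fell, with a median of -0.45. The 16 probes held 64.7% pyrimidines on average. Over all tested probes, those that fell made up 0.0251%, 0.114%, 0.348%, 1.70% and 1.05% of the 5 bins from at most 40% to over 70% pyrimidines. These shares include the receptors, which were 12 of the 44 that fell between 60% and 70%, and the 1 that fell above 70%. The 16 include the 9 whose direction was set by the rule. The part of base composition in the fall of these receptors was not tested.

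No receptor probe rose. Among probes without overlap that were well above background on all 3 knockout arrays, the largest positive log2 fold changes were those of Olfr156, Olfr212, Olfr513, Olfr159 and Olfr1372-ps1. Olfr156, at chr4:43833365-43833424, had levels of -4.14, -4.71 and -4.64 in knockout cells, against -6.003, -5.46 and -5.03 in wild type cells (log2 fold change 1.00 ± 0.28 SE, limma adjusted p = 0.145). Olfr212, at chr6:116467924-116467983, had levels of -1.81, -2.13 and -2.46 in knockout cells, against -3.21, -3.02 and -2.84 in wild type cells (log2 fold change 0.89 ± 0.19 SE, limma adjusted p = 0.103). The Olfr156 and Olfr212 arrays varied more within a genotype than those of Olfr1402 or Olfr700. Olfr159, in the same chromosome 4 cluster as Olfr156 and Olfr29-ps1, had -3.98, -3.99 and -3.94 in knockout cells, against -4.57, -4.28 and -4.33 in wild type cells (limma adjusted p = 0.137). That cluster held Olfr29-ps1, which fell, beside Olfr156 and Olfr159, whose values in the opposite direction missed the threshold. Olfr29-ps1 was detected on wild type arrays only, so its direction was set by the rule.

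Genes that carry odorant signals inside the neuron were largely detected and did not pass the test. Of 21 genes for olfactory signalling and receptor trafficking, 16 were tested and none rose or fell by limma, and Cnga4, Ano2, Rtp1, Stoml3 and Slc24a4 were detected on no array. At an unadjusted p under 0.05 there were 5 of them, 3 higher and 2 lower, beside 10.6% of all tested probes higher and 11.3% lower. The log2 fold change was positive at 10 and negative at 6, with a median of 0.11. Adcy3, the adenylyl cyclase of olfactory cilia, had levels of -3.18, -3.27 and -3.28 in knockout cells, against -4.01, -3.64 and -4.02 in wild type cells (log2 fold change 0.65, limma adjusted p = 0.0962). Adrbk2, the receptor kinase now called Grk3, had -2.30, -1.95 and -1.77 in knockout cells, against -2.74, -2.69 and -3.46 in wild type cells (log2 fold change 0.95, limma adjusted p = 0.133). Omp, the olfactory marker protein of mature neurons, had -2.04, -1.96 and -2.06 in knockout cells and -2.21, -2.34 and -1.94 in wild type cells, and the groups overlapped.

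Genes known to act in receptor choice were also tested. Of 19, 18 were detected and none rose or fell by limma, while 4 had an unadjusted p under 0.05, 1 higher and 3 lower, beside the same shares of all tested probes. The log2 fold change was positive at 6 and negative at 12, with a median of -0.099. Emx2 was detected on no array. Ebf1, which binds the O/E sites of receptor promoters, had levels of -3.78, -3.92 and -3.92 in knockout cells, against -3.40, -3.05 and -3.34 in wild type cells (log2 fold change -0.61, limma adjusted p = 0.0979). Ehmt2, a histone methyltransferase of heterochromatin, had 4.63, 4.55 and 4.43 in knockout cells, against 4.91, 4.72 and 5.10 in wild type cells (log2 fold change -0.37, limma adjusted p = 0.190). Lhx2, a homeodomain factor of the receptor enhancers, had -2.38, -2.21 and -2.24 in knockout cells, against -2.69, -2.28 and -3.21 in wild type cells (limma adjusted p = 0.308). Atf5, the factor that stabilises a neuron's choice, had 2.61, 2.30 and 2.45 in knockout cells, against 3.77, 2.64 and 3.25 in wild type cells (limma adjusted p = 0.203).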

How the data were processed

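Total RNA of 3 Zscan5b knockout and 3 wild type ES cell samples was measured on 1-colour arrays, and samples were grouped by their titles. The authors deposited scanner files whose spot intensity, per the file headers, had been background-subtracted and detrended by Agilent Feature Extraction 10.7.3.1; version 10.3.1.1 stands in the submitters' processing notes. The authors' deposited series table of log2 values, of unstated scaling, served as an alternative.

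Control spots and outlier spots were left out, replicate spots averaged after log2, and each array's 75th percentile subtracted. Of 39429 probes, the 26651 well above background on at least 3 of 6 arrays were tested with limma 3.58.1 under R 4.3.3 (lmFit and eBayes, two-sided, Benjamini-Hochberg over all tested probes, threshold 0.05); 2 could not be fitted. No probe was saturated, and no detected receptor probe lacked a value. The number of arrays limits the precision.

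Named genes were Zscan5b, the 12 brightest receptors, all that passed the test, the 5 largest changes without overlap each way, receptors detected in 1 genotype only, the rule's edge, and up to 4 genes per list. Members and lists were chosen with earlier results of these data known. A gene's list entry is its brightest tested probe. Names were updated through the RefSeq gene table of GRCm38.p6, which named 155 of the 158 detected probes by accession and gave Olfr391-ps, Olfr1537-ps1 and Olfr406-ps names without the suffix; 3 detected probes had no position. Tested on simulated data for this comparison (26651 probes), the fit called 80 of 100 probes with a true log2 change of 2, 41 of 100 with a change of 1, and 9 of 26451 without a change. Alternatives covered background correction, scaling, detection filter, weights, variance prior, replicate block and leaving out each array.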

Additional observations from a re-analysis of the deposited data

How the results depend on the processing

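With 3 arrays a genotype, calls close to the threshold moved with most settings, and the causes were not tested. The 16 receptor probes that fell became 0 with normexp, without a detection filter, with detection on all 6 arrays (adjusted p then 0.0510 to 0.0575), with a trended robust prior and with the replicate block, and 40 with array weights. Leaving out 1 array gave 0 to 40. No receptor rose, except 2 with array weights, and 0 to 2 when 1 array was left out. Of the 16, 14 were called again after quantile normalization and 16 after the median shift, in the authors' table, with array weights and without wild type replicate 1 or 2. Over all tested probes, the 33 that rose and 91 that fell became 0 and 0 with normexp, no filter, detection on all 6 arrays, the trended robust prior and the replicate block. Array weights gave 811 and 782, and the median shift 54 and 177. Quantile normalization gave 50 that rose. Leaving out 1 array gave 0 to 1409 that rose and 0 to 1148 that fell. The median log2 fold change of the receptors was -0.11 with normexp and -0.17 with detection on all 6 arrays, against -0.32. Detected receptor probes numbered 366 on at least 1 array, 78 on all 6 arrays and 496 with the positive and significant mark, against 158. Clusters with a detected probe numbered 34 with gaps of 0.5 Mb and 30 with 2 Mb, against 33. Same-numbered arrays of the genotypes had deviations that correlated at 0.16, 0.23 and -0.14, and differently numbered arrays at -0.32 to 0.21. With 3 arrays a genotype these values gave no clear sign of pairing and cannot exclude it. Of 1127 values of named genes under the alternatives, 8 changed sign, none of them of a gene that passed the test.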

Other observations

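Other chemosensory receptor families are given beside the 13.22% of olfactory receptor probes detected. Of the vomeronasal receptor probes, 22 of 174 Vmn1r (12.6%) and 11 of 118 Vmn2r (9.32%) met the detection rule. Of the Vmn1r probes 3 fell in knockout cells by limma and of the Vmn2r probes none did, beside 0.341% of all tested probes. At an unadjusted p under 0.05, 9 Vmn1r and 5 Vmn2r probes were lower, beside 11.3% of all tested probes, and 1 Vmn1r and no Vmn2r probe was higher, beside 10.6%. The trace amine receptors had 2 of 15 probes detected and the bitter taste receptors (Tas2r) 4 of 37, of which 2 fell. The sweet and umami receptors (Tas1r) had 2 of 3 detected. The formyl peptide receptors of the vomeronasal organ (Fpr-rs) had 2 of 3 detected, of which 1 fell. No probe of these families rose by limma, beside 0.124% of all tested probes that rose and 0.341% that fell. Detection on all 6 arrays held for 14 of the 22 Vmn1r probes, 5 of the 11 Vmn2r, 2 of the 4 Tas2r and 0 of the 2 Fpr-rs. Probes detected on fewer arrays can meet the rule through wild type arrays alone, and the falls here are not split by that. The median log2 fold change was -0.48 over the detected Vmn1r probes and -0.49 over the detected Vmn2r probes.

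Of 8 markers of male germ cells, a cell type that transcribes some olfactory receptors, 6 were tested and none passed the limma test, while 2 were lower at an unadjusted p under 0.05, beside 11.3% of all tested probes. The log2 fold change was negative at 5 and positive at 1, that of the protamine Prm1 (0.60, limma adjusted p = 0.357). Tnp1, a transition protein of spermatids, had levels of -5.40, -4.99 and -5.28 in knockout cells, against -4.31, -4.19 and -4.35 in wild type cells (log2 fold change -0.94, limma adjusted p = 0.0574). All 4 markers of vomeronasal neurons were tested, and none had an adjusted or unadjusted limma p under 0.05. Trpc2, a channel of vomeronasal neurons, had levels of -0.19, 0.40 and 0.58 in knockout cells and of -0.47, 0.37 and 0.46 in wild type cells, and the groups overlapped.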
